A study of Mus musculus with 6 samples.

Results

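Caloric restriction (CR) begun at 3 months of age was compared with ad libitum feeding (AL) in the ventricles of 6-month-old mice, across all genes that could be measured in both groups. Both groups were male C57BL/6J mice that were caged individually and then kept on their diet for 12 weeks. AL mice had free access to standard chow, and the food of CR mice was reduced by 10% in the first week, by 25% in the second and by 40% for the remaining 10 weeks, so that they ended at 60% of AL intake. Equal amounts of ventricular tissue from several mice were mixed into 1 RNA pool per group, read on 1 single-dye array, and the pools of mice started on the diets at 12 and 19 months (4 arrays) are used only for reference. A gene was included when at least 1 of its probes was well above background in both young pools, which held for 11057 of the 32451 genes and transcripts on the array. These were read by 12325 of 39429 probes. With 1 pool per group, no difference has a replicate check and no p-value is given.

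The heart burns mainly fatty acids, and most of its ATP is made in mitochondria, where the electron transport chain (complexes I to IV) pumps protons and ATP synthase uses the gradient. That ATP drives the sliding of thick on thin filaments in the sarcomere and the return of calcium to its stores after each beat. Fatty acids reach the cardiomyocyte across capillary endothelium, and food shortage is known to shift fuel use through PPAR-alpha and FOXO target genes. Each of these processes has a gene list here.

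Values are differences between the CR and the AL array, CR minus AL on the log2 scale, after each array's signals were divided by their 75th percentile (29.3 for AL and 23.1 for CR). A gene at the same scaled level therefore had a raw CR signal lower by 0.345 on the log2 scale. The number after ± is the scanner's own error of a spot, carried to the difference, and it covers spots only, not mice or pools. A change means a fold of at least 2. The young arrays stood apart from the others. Well above background were 36.0% of probes in young AL and 33.9% in young CR mice, against 61.6% to 77.1% on the 4 later arrays. The brightest 20 spots gave 17.7% and 16.7% of the summed signal, against 6.66% to 7.92%, and the 28S ribosomal RNA probe read 13.49 and 14.12 on the scaled log2 axis, against 8.55 to 9.12. All 18 probes of 13 ventricular cardiomyocyte markers were nevertheless well above background on both young arrays, as the labelled tissue requires. These arrays did not settle the labelled sex. The Y-linked genes Ddx3y, Eif2s3y and Kdm5d were not above background in either young pool, 1 of 2 probes of Y-linked Uty was above it in the AL pool only, and 1 of 2 Xist probes in the CR pool only.

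At this scale 175 genes rose and 127 fell in CR mice by 2-fold or more, which is 1.58% and 1.15% of the genes measured and 2.73% together. Rises made up 57.9% of these changes, and this split depended on the scale, with 16.6% after median scaling, 43.1% after quantile normalization, 40.2% after loess, 39.4% in the deposited log2 values and 43.7% after centring on the median. The share was 65.8% with the percentile over probes above background on all 6 arrays. It was 67.4% with flagged spots kept, 68.0% in the brighter 50% of probes and 76.9% with no filter on dim probes. Median scaling moved the median of all genes from 0.08 to -0.21, so each difference is relative to the scale. The background correction mattered too. Normexp, which adds an offset before the log2 is taken, kept 56 of the 175 rises and 34 of the 127 falls past 2-fold. The middle 50% of genes lay between -0.16 and 0.30 around a median of 0.08. Of the 11057 genes, 6525 lay above 0 and 4532 below it. The genes that fell and the genes that rose had different profiles on the arrays. The 127 that fell were among the strongest heart signals at later ages, with a median later level of 3.94 (log2 over the 75th percentile) against 0.37 for all measured genes, and 54 of them (42.5%) belonged to the top 10% there. The 175 that rose had an ordinary later level (0.42) but a high young one (6.29, against 1.06 for all measured genes), and 129 of them (73.7%) stood at least 8-fold higher on the young arrays than on the later ones, against 27.9% of all measured genes.

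The difference between CR and AL followed the later-age signal of a gene, which was not used to choose or compute it. From the lowest to the highest 10% of that signal, the median difference went from 0.20 to -0.17, and across the 11057 genes Spearman's rho was -0.26. In the highest 10%, 54 of 1106 genes fell and 8 rose, and in the lowest 10% 5 fell and 27 rose. Genes are not independent replicates and all of them share the same 2 arrays, so this is a description. Most oxidative phosphorylation genes lie at the high end, and the part of this relation in their medians was not tested. For the main lists, the median after this relation had been subtracted is given below, always relative to all genes.

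**Figure D1:**
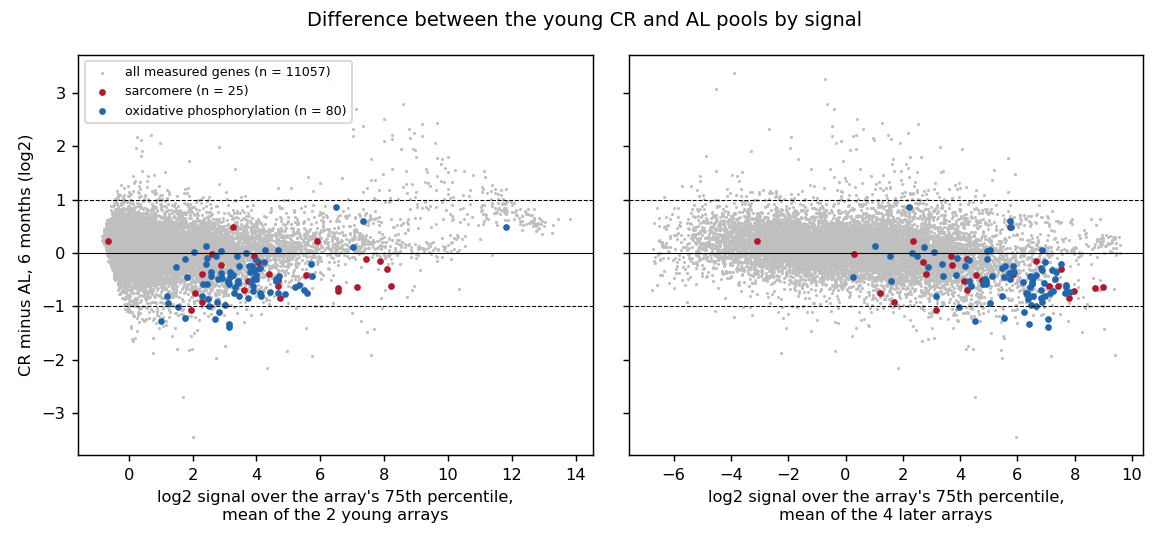
CR minus AL difference (log2) of the 11057 measured genes at 6 months against their mean scaled log2 signal on the 2 young arrays (left) and on the 4 later arrays (right), with the 80 oxidative phosphorylation and 25 sarcomere genes coloured and dashed lines at 2-fold. The genes far above the upper line are mostly bright on the young arrays, and on the right the cloud bends downward where the coloured genes lie.

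The nuclear genes of oxidative phosphorylation were lower in CR mice as a group. Of 81 on the array 80 were measured, 70 were lower and 10 higher, and their median was -0.49. At least 2-fold lower were 8 of them (10.0%, beside 1.15% of all measured genes), none was 2-fold higher, and 50 were lower by more than 2 scanner errors while 3 were higher by as much (2219 of the 11057 measured genes were beyond 2 errors in either direction). Of the 80, 62 lay in the top 10% of later signal. Within that 10% their median was -0.56, and that of the other 1044 genes was -0.14. In this bulk tissue, fewer cells of a type and less RNA per cell cannot be told apart.

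Complex I, which takes electrons from NADH, had a median of -0.51 over 36 measured subunits, of which 34 were lower and 6 changed. The signal of Ndufa4, a subunit first described in complex I and now known from complex IV, was 421.9 in AL and 126.8 in CR mice, a difference of -1.39 ± 0.21. Ndufb2, an accessory subunit of the membrane arm, read 410.6 and 128.6 (-1.33 ± 0.21). Ndufb6, of the same arm, read 106.1 and 31.1 over 2 probes (-1.28 ± 0.19). These 3 signals were lower in CR mice by more than the difference in scale between the arrays. Ndufa7 (-1.22 ± 0.22), Ndufa1 (-1.10 ± 0.21) and the NADH-binding flavoprotein subunit Ndufv1 (236.4 and 92.9) were the other genes past 2-fold, named for that after their values were seen, and Ndufa11 at 0.14 ± 0.21 and Ndufv3 at 0.02 ± 0.19 were the only measured subunits above 0. With normexp, Ndufa4 and Ndufb2 stayed past 2-fold, and Ndufb6, Ndufa7, Ndufa1 and Ndufv1 did not (-0.64, -0.79, -0.98 and -0.89).

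The other complexes were lower with fewer 2-fold changes. All 9 measured subunits of complex III, which passes electrons to cytochrome c, lay below 0, from -0.92 ± 0.21 for Uqcr11 to -0.13 ± 0.21 for Cyc1, with a median of -0.44. Uqcrc2, a core protein read by at least 9 replicate spots on each array, had signals of 306.7 and 177.6 and a difference of -0.44 ± 0.07, with a spot SD of 0.06 on each array. ATP synthase had a median of -0.54 with 14 of 15 subunits lower and none past 2-fold. Its catalytic beta subunit Atp5b read 1812.9 and 848.0 (-0.75 ± 0.20).

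Complex IV, the oxidase that reduces oxygen, was mixed, with 10 of 16 subunits lower, a median of -0.32 and 2 changes. Cox5b read 295.0 and 98.8 (-1.23 ± 0.21) and Cox7a2l, a factor in joining complexes into larger assemblies, had a difference of -1.01 ± 0.14 over 3 probes (-0.68 with normexp). Cox4i1, the ubiquitous isoform of subunit IV, differed by 0.05 ± 0.20, whereas its alternative isoform Cox4i2 was higher (1964.9 and 2803.0, 0.86 ± 0.20). In complex II, succinate dehydrogenase, Sdhc was lower (-0.81 ± 0.18) and Sdhb higher (0.59 ± 0.15), but the 2 probes of Sdhb disagreed, at -0.04 and 1.22.

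Many nuclear genes of the chain are known to be activated by nuclear respiratory factor 1 (NRF1), so their promoters were searched for its motif. The RefSeq window from 250 bases before to 50 after the start (GRCm38.p6) was found for 66 of the 80 genes, and the letters GCGCANGCG stood in 20 of them (30.3%) on either strand, against 13.5% of 5858 measured genes and 7.03% of 27025 genes with a window. The YY1 motif AANATGGCG stood in 10 (15.2%), against 5.22% and 2.76%. The 20 genes with the NRF1 letters had a median difference of -0.52 and the 46 without had -0.54, close to each other. The windows of 3 genes are shown, 5′ to 3′ along the gene, with the NRF1 letters in capitals. These 3 had the lowest differences among genes with the letters in their first listed window, with genes of 1 chromosome left out. The differences were -0.98 ± 0.09 for Atp5l, -0.94 ± 0.24 for Ndufa8 and -0.92 ± 0.21 for Uqcr11.
Atp5l (chr9:44920693-44920992, minus strand): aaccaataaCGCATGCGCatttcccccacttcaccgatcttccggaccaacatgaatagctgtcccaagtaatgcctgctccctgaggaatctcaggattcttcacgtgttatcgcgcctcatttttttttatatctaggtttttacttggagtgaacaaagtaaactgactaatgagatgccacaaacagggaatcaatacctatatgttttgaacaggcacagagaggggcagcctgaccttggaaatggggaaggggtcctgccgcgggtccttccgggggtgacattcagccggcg
Ndufa8 (chr2:36049289-36049588, minus strand): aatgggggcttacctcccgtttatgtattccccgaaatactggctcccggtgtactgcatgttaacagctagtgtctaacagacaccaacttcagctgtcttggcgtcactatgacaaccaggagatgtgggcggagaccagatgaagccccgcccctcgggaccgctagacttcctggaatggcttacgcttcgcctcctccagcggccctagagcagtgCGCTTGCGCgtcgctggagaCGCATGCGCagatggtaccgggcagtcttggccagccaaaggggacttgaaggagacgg
Uqcr11 (chr10:80406772-80407071, minus strand): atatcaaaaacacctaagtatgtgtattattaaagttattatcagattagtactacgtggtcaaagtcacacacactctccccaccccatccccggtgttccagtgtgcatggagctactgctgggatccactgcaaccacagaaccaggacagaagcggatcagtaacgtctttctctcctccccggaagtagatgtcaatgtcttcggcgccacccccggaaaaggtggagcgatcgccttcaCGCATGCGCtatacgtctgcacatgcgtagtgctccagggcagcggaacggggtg

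Fuel pathways upstream of the chain were lower too. In the TCA cycle 12 of 16 genes were lower, with a median of -0.38 and no change past 2-fold. The lowest was Idh2, the mitochondrial NADP-dependent isocitrate dehydrogenase (517.5 and 230.6, -0.82 ± 0.21), and citrate synthase, Cs, differed by -0.37 ± 0.21. In fatty acid oxidation 17 of 19 genes were lower, with a median of -0.51 and 3 falls past 2-fold. Acadl, the long-chain acyl-CoA dehydrogenase, fell from 56.7 to 14.2 (-1.66 ± 0.36), but the CR signal is at the lower limit of detection and the difference was -0.55 with the normexp background. Hadh, of the third step of each cycle, fell from 155.7 to 51.1 (-1.26 ± 0.22), and Etfdh, which hands the electrons to the chain, from 106.7 to 38.9 (-1.11 ± 0.24). These also stood under 2-fold with normexp, at -0.74 and -0.62. Acaa2, the thiolase, was read by 10 spots on each array at 610.3 and 275.0 (-0.80 ± 0.07). The carnitine palmitoyltransferases of the outer membrane, which admit fatty acids to mitochondria, did not share this, with Cpt1b at 0.17 ± 0.16 and Cpt1a at 0.13 ± 0.22.

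In glycolysis 11 of 16 genes were lower, with a median of -0.29 and none past 2-fold. The muscle phosphofructokinase Pfkm, the committing step, read 294.0 and 158.4 (-0.55 ± 0.07) and Ldha was at 0.15 ± 0.12. The muscle creatine kinase Ckm differed by -0.73 ± 0.21 and the mitochondrial Ckmt2 by -0.50 ± 0.20. The insulin-responsive glucose transporter Slc2a4, read by 10 spots on each array, was at 362.6 and 193.4 (-0.56 ± 0.07). After subtraction of the relation with later-age signal, the medians relative to all genes were -0.40 for complex I, -0.37 for ATP synthase, -0.27 for complex III, -0.20 for complex IV, -0.26 for the TCA cycle, -0.44 for fatty acid oxidation and -0.18 for glycolysis, each nearer to 0 than before the subtraction (-0.59, -0.62, -0.52, -0.40, -0.46, -0.59 and -0.37).

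**Figure D2:**
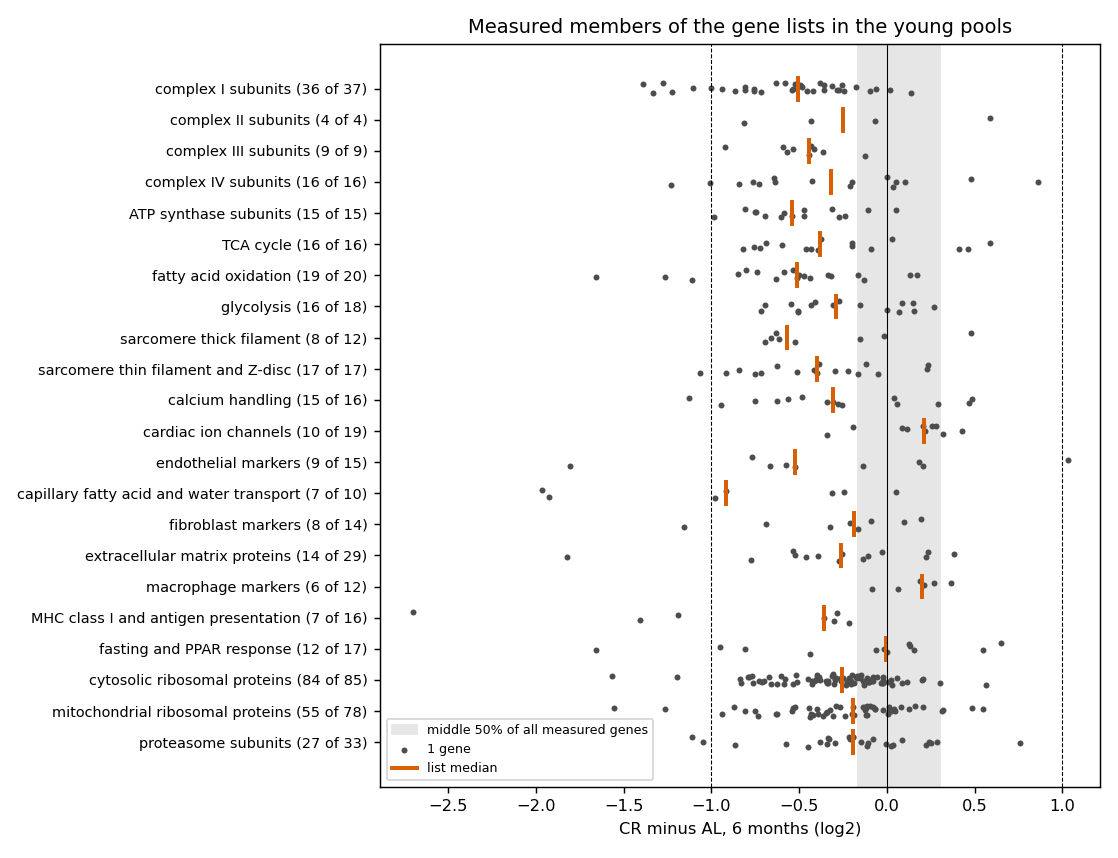
CR minus AL difference (log2) at 6 months of each measured member of 22 gene lists (dots, 1 gene each), with the list median (bar), the middle 50% of all 11057 measured genes (grey band) and dashed lines at 2-fold; the numbers after each name are measured and on the array. Only the ion channel, macrophage and fasting and PPAR medians lie inside the band. The medians of all other lists shown lie left of it, though single genes of these lists can lie inside or right of it.

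The contractile apparatus was lower with 1 change past 2-fold. Of 29 thick filament, thin filament and Z-disc genes 25 were measured, 22 were lower, and their median was -0.41. Cardiac troponin I, Tnni3, read 10847.3 and 5534.2 (-0.63 ± 0.20), the ventricular light chains Myl2 and Myl3 differed by -0.63 ± 0.20 and -0.66 ± 0.20, and myosin-binding protein C, Mybpc3, by -0.61 ± 0.20. The adult motor Myh6 was nearly level at -0.16 ± 0.14, and desmin, Des, was higher at 0.23 ± 0.07 over 10 spots. The stretch-responsive Ankrd1 fell from 162.8 to 61.3 (-1.06 ± 0.22, or -0.75 with normexp) and the skeletal actin Acta1, of the fetal gene program, differed by -0.91 ± 0.21. Nppa, the atrial natriuretic peptide of the same program, was higher on the scaled axis (0.37 ± 0.07), with nearly equal signals of 325.1 and 327.0. Myh7 and Nppb, also of that program, were not measured in both pools. Subtracting the later-age relation moved the median relative to all genes from -0.645 to -0.435 for the thick filament and from -0.477 to -0.277 for the thin filament and Z-disc.

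All 13 ventricular cardiomyocyte markers were lower, from -0.16 for Myh6 to -1.13 for Pln, with a median of -0.63. Relative to all genes this was -0.70, and -0.51 after the later-age relation had been subtracted. In the calcium list the lowest values belonged to a pair of partners. Phospholamban, Pln, the inhibitor of the calcium pump, fell from 452.0 to 163.1 (-1.13 ± 0.21), and the pump itself, Atp2a2, read 2287.8 and 972.3 (-0.94 ± 0.15). The release channel Ryr2 differed by -0.56 ± 0.23 and the exchanger Slc8a1 by -0.63 ± 0.22. Ion channels did not share the low values. Of 10 measured, 8 were higher, with a median of 0.21 (-0.02 with normexp) and none past 2-fold. Fhl2, a LIM-domain protein of the sarcomere and nucleus that is in none of the lists, fell from 439.2 to 103.0 (-1.75 ± 0.21).

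Genes of the capillary wall gave some of the largest falls. Of 7 measured genes of capillary fatty acid and water transport, 6 were lower, 2 fell past 2-fold, and the median was -0.92. It was -0.50 with normexp, and relative to all genes it was -0.99, or -0.82 after subtraction of the later-age relation. The water channel Aqp1 fell from 384.5 to 77.6 (-1.96 ± 0.21). Fabp4, a fatty acid carrier of endothelium and adipocytes, fell from 3051.8 to 631.7 (-1.93 ± 0.20). Next came the fatty acid receptor Cd36 at -0.98 ± 0.21 and Gpihbp1, which anchors lipoprotein lipase to the capillary wall, at -0.92 ± 0.24, while the lipase Lpl itself differed by -0.24 ± 0.14 and Cav1 by 0.05 ± 0.27.

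Endothelial markers did not move as 1 block. The junction cadherin Cdh5 fell from 215.6 to 48.5 (-1.81 ± 0.23), and Egfl7, Ly6c1 and Robo4 differed by -0.77 ± 0.21, -0.67 ± 0.15 and -0.58 ± 0.24. The growth factor receptor Kdr and endoglin, Eng, were at 0.18 ± 0.21 and 0.20 ± 0.27. Pecam1 rose from 6028.2 to 9690.2 (1.03 ± 0.20), but it was bright on the young arrays only (scaled log2 levels of 7.68 and 8.71, against a mean of 1.45 later) and its difference was 0.31 in the deposited values. The list median was -0.52 over 9 genes, but -0.16 with normexp, and relative to all genes it was -0.60, or -0.49 after subtraction of the later-age relation. Id1, a regulator induced by bone morphogenetic protein in endothelium, fell from 157.1 to 35.5 (-1.80 ± 0.24) and Sparcl1, a matricellular protein, from 203.1 to 45.2 (-1.82 ± 0.23).

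Other cell types had smaller median differences. Fibroblast markers had a median of -0.19 over 8 of 14 genes, with 1 fall, in gelsolin, Gsn (352.3 and 128.8, -1.16 ± 0.15), which other cells also express and which stood at -0.97 on its brighter probe. Among collagens, Col3a1 differed by -0.33 ± 0.23, Col1a2 by -0.21 ± 0.24 and Col1a1 by 0.10 ± 0.22, none beyond 2 scanner errors. Of 6 measured macrophage markers 5 were higher, with a median of 0.20 (-0.01 with normexp), and Csf1r was at 0.27 ± 0.15. Smooth muscle and pericyte markers had a median of 0.23 over 5 genes (-0.05 with normexp), with 1 fall in the pericyte gene Rgs5 (-1.04 ± 0.30, or -0.48 with normexp). B and T cell markers had a median of -0.07 over 5 genes. No platelet marker was measured in both pools. Alpha and beta globin genes, which mark residual blood, split, from Hbb-bt at -0.71 ± 0.21 to Hbb-bs at 1.23 ± 0.28 (0.43 with normexp), and these near-identical genes cannot be kept apart with certainty by a probe. The medians of the fibroblast, macrophage and B and T cell lists were thus nearer to 0 than that of the capillary list. Whether the makeup of the pools had a part in the values was not tested.

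Antigen presentation by MHC class I held the largest fall among the genes chosen to be named. All 7 measured genes of that list were lower, with a median of -0.36, and 3 fell past 2-fold. Relative to all genes the median was -0.44, and -0.43 after subtraction of the later-age relation. B2m, the light chain shared by all class I molecules, fell from 245.8 to 29.8 (-2.70 ± 0.25, 6.50-fold). The classical heavy chains followed. H2-D1 had scaled log2 levels of 2.15 in AL and 0.74 in CR (-1.41 ± 0.23). H2-K1 had a difference of -1.19 ± 0.11 over 2 probes, which disagreed in size. Its probe with 10 spots on each array went from 128.9 to 28.2 (-1.86, with a spot SD of 0.07 in AL and 0.18 in CR), and the other probe differed by -0.53. The class Ib genes H2-Q7 and H2-T23 were at -0.30 ± 0.21 and -0.28 ± 0.21, and heavy-chain genes are so alike that their probes may share transcripts. With the normexp background the differences were -1.67 for B2m, -0.91 for H2-D1 and -0.72 for H2-K1, so that B2m alone stayed past 2-fold. Of the interferon response genes, Ifi27 was lower (77.5 and 43.2, -0.50 ± 0.23), Isg15 and Gbp2 were at -0.13 ± 0.39 and -0.11 ± 0.39, close to the detection limit, and the other 16 of 19 were not measured in both pools.

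The promoters of the 3 class I genes that fell are shown because these genes moved together and are known to share control elements. The letters AANNGAAA, the core bound by interferon regulatory factors, are in capitals, as is the CCAAT box, both on either strand. The first stood in 6 of the 7 promoters of the list, against 22.5% of measured genes and 26.7% of all genes with a window. Among all genes at least 2-fold lower it stood in 25.7%. The CCAAT box stood in 6 of 7, against 42.4%, 41.1% and 44.6% in the same order. The heavy-chain genes of the list are paralogs, so windows such as those of H2-D1 and H2-K1 are alike by descent. H2-K1 has 2 entries and the first is shown.
B2m (chr2:122147437-122147736, plus strand): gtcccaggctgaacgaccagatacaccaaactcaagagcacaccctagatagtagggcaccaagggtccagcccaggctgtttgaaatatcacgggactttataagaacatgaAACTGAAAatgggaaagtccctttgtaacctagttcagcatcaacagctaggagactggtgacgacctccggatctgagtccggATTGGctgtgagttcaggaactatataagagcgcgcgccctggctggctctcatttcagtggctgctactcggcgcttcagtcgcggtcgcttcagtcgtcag
H2-D1 (chr17:35262844-35263143, plus strand): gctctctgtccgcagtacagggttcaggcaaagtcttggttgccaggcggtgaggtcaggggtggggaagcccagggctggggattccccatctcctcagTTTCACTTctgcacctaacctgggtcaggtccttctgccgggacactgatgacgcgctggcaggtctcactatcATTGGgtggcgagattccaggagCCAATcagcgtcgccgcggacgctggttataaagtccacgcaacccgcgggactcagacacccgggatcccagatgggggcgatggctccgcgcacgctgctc
H2-K1 (chr17:34000298-34000597, minus strand): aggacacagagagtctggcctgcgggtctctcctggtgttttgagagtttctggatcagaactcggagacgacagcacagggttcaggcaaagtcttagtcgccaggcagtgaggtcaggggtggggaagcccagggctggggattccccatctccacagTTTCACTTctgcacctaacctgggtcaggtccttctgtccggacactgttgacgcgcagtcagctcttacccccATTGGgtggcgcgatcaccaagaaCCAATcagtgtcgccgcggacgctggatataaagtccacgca

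**Figure D3:**
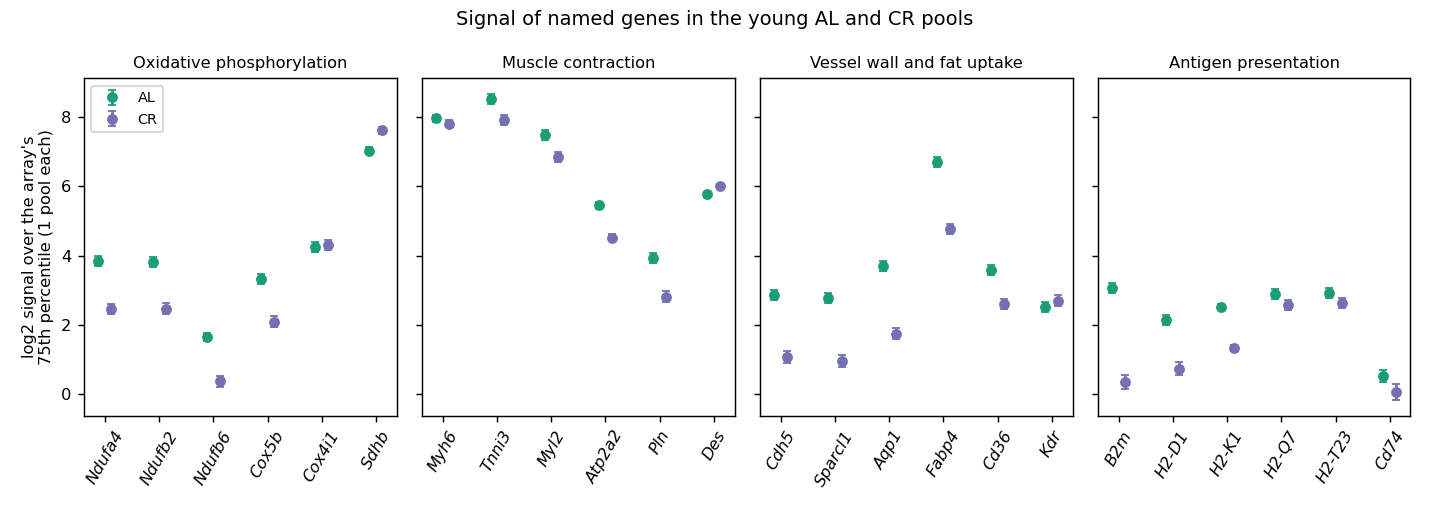
Scaled log2 signal of 24 genes in the young AL and CR pools (1 array each), by role; bars are the scanner's error of each array and do not cover mice or pools. The AL point stands clear of the CR point for Ndufa4, Pln, Aqp1 and B2m, while Cox4i1 and Kdr have overlapping bars and Sdhb and Des are higher in CR.

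Genes that respond to fasting did not move together. Of 12 measured PPAR targets 6 were higher and 6 lower, with a median of -0.01. Angptl4, an inhibitor of lipoprotein lipase, read 102.4 and 126.6 (0.65 ± 0.21), and Pdk4, the kinase that shuts pyruvate out of oxidation, read 85.7 and 98.5 (0.55 ± 0.22). Ucp3 was level (-0.02 ± 0.20) and the heart fatty acid carrier Fabp3 was lower (-0.95 ± 0.15). Among glucocorticoid-induced genes Klf9 fell (53.0 and 20.2, -1.05 ± 0.30, or -0.33 with normexp), whereas Fkbp5 was at 0.17 ± 0.26 and Tsc22d3 at -0.57 ± 0.30. Of the clock's output genes, Tef fell from 226.8 to 88.2 (-1.02 ± 0.21, or -0.90 with normexp) and Dbp differed by -0.36 ± 0.21, and 4 of 5 genes of the positive arm were not measured. Food was given at a fixed morning hour, and the hour of tissue collection is not known here. In insulin signalling, Pik3r1, the regulatory subunit of PI3-kinase, fell (53.1 and 20.8, -1.01 ± 0.31, or -0.41 with normexp), Igf1 was higher over 4 probes (0.58 ± 0.15), and the list median was -0.10 over 12 of 22 genes.

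Of the study's own pathways, few regulators were measured. In both pools 2 of 7 AMPK subunits and 1 of 3 FOXO factors were above background. The 2 subunits differed by -0.25 and -0.001, and the FOXO factor by 0.04 ± 0.38. FOXO targets had a median of 0.17 over 13 genes with none past 2-fold. Their median was 0.09 relative to all genes and -0.01 with normexp. Above 0 lay 8 of the 13, beside 6525 of all 11057 measured genes. Among these 8 was the atrophy-related ubiquitin ligase Fbxo32 (128.5 and 142.4 over 9 spots, 0.49 ± 0.07). Below 0 lay 5, among them the superoxide dismutases Sod1 (-0.72 ± 0.21) and Sod2 (-0.43 ± 0.21). Autophagy genes had a median of -0.30 over 14 (-0.025 in the brighter 50% of probes), in which the membrane marker Map1lc3b was lower over 10 spots (66.7 and 30.1, -0.81 ± 0.08), the receptor Sqstm1 was at 0.16 ± 0.21, and the starting kinase Ulk1 was higher (0.73 ± 0.20) on a probe of very strong young signal. Antioxidant genes had a median of -0.30 over 17 (-0.16 with normexp). Among heat shock genes the small chaperone Hspb1 fell (58.5 and 15.3, -1.59 ± 0.35, or -0.60 with normexp) and Hsp90aa1 was higher (0.90 ± 0.21). The heat shock median relative to all genes was -0.44, and -0.21 after subtraction of the later-age relation.

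The protein synthesis lists were lower by less. Cytosolic ribosomal proteins had a median of -0.26 over 84 of 85 genes with 74 lower and 2 falls, of which Rpl4 was the larger (194.2 and 51.6, -1.57 ± 0.22). Relative to all genes the median was -0.33, and -0.14 after subtraction of the later-age relation. Several of these genes have near-identical processed copies that a probe may also read. Proteasome subunits had a median of -0.19 over 27. Mitochondrial ribosomal proteins had a median of -0.19 over 55 of 78, with 41 lower and 2 falls, in Mrpl42 (-1.56 ± 0.25) and Mrps16 (-1.26 ± 0.29), both under 2-fold with normexp (-0.93 and -0.52). Only 3 of 28 cell cycle and mitosis genes were measured in both pools, and of these Pcna had the largest difference (0.64 ± 0.24).

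Regardless of list, 27 genes with a symbol rose and 18 fell at least 2-fold under the main and the other 4 ways of scaling and background correction. Their probes above background agreed, and each named gene had 1 such probe. The largest of these rises were Runx1, a blood and stress transcription factor (17.9 and 146.3, 3.37 ± 0.35), Nrf1, the factor named above (738.7 and 5580.8, 3.26 ± 0.20), Add2, an adducin of the red cell skeleton (22.8 and 151.5, 3.08 ± 0.28), the ephrin ligand Efna4 (4347.5 and 23546.5, 2.78 ± 0.20) and the secreted phospholipase Pla2g2f (1590.7 and 8106.8, 2.70 ± 0.20). The AL signals of Runx1 and Add2 lay near the detection limit, and with normexp their differences were 1.24 and 1.47, below those of Nrf1 (2.98), Efna4 (2.56) and Pla2g2f (2.41). Most of the 12 rose at strong signals. The choice favours these, since normexp adds an offset of 50, which shrinks differences at dim signals. Asphd2, Spef1l, Pramel20, Tox2, the olfactory receptor Olfr18, Slc35d2 and the cell cycle factor Mybl2 rose by 2.19 to 2.52.

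For the risen genes that have further probes on the array, those probes gave no second reading. The other 2 probes of Nrf1 were at 6.0 and 10.7 in AL and 3.1 and 11.8 in CR mice, not above background in either, and the second probes of Runx1, Slc35d2 and Mybl2 were not above background either. With those probes included, the difference was 1.82 for Runx1, 1.06 for Nrf1, 1.23 for Slc35d2 and 0.65 for Mybl2. In the deposited values the bright rises were smaller, at 2.07 for Nrf1, 1.55 for Pla2g2f, 1.38 for Efna4, 1.29 for Asphd2, and between 0.99 (Mybl2) and 1.16 (Slc35d2) for Spef1l, Pramel20, Tox2, Olfr18 and these 2 genes. Of the 175 risen genes, 38 (21.7%) had a probe that was not measured, close to the 20.6% of all genes, and only 3 were measured by several probes. Among the 12 largest rises, Nrf1 belongs to the cardiac transcription factor list, where the other 14 measured genes lay between -0.59 and 0.31 and none changed. Add2 had the highest value of the 7 measured erythroid markers, and Olfr18 that of the olfactory receptors. Olfactory receptors, which heart tissue is not known to express widely, were measured in 169 of 1070 cases, with 7 rises and no fall and a median of 0.20 (0.02 with normexp).

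The largest named falls not yet described were Kdm4b, a histone demethylase (1239.6 and 217.9, -2.16 ± 0.21), Tsnax, a partner of the RNA-binding protein translin (214.8 and 62.2, -1.44 ± 0.22), and Pax3, a developmental factor (2229.9 and 660.8, -1.41 ± 0.20), whose other probe was not above background. Together with B2m, Aqp1, Fabp4, Sparcl1, Cdh5, Id1, Fhl2, Rpl4 and Ndufa4 they form the 12 largest falls that held under those settings, while some falls described above, such as that of Acadl, were larger than that of Ndufa4 but did not hold with normexp. Of these 12, Aqp1, B2m, Fabp4, Id1, Ndufa4, Rpl4 and Sparcl1 were in the top 10% of later signal. The choice of these 12 favours bright genes, as it does for the rises. In the brightest 25% of measured genes the 10 largest falls also included Cox5b, Ndufb2, Gsn and Tmsb4x, an actin-binding peptide (627.1 and 221.0, -1.16 ± 0.21).

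The same genes were then read in the pools that began CR at 12 and 19 months. Over the 80 oxidative phosphorylation genes the median was -0.49 in young, 0.49 in middle-aged and 0.46 in old mice. At both later ages 77 of the 80 were higher, whatever their direction in the young pools. Of the 70 genes lower in the young pools, 69 were among these 77. Fatty acid oxidation had medians of -0.51, 0.45 and 0.54, the sarcomere -0.41, 0.59 and 0.42, and the cardiomyocyte markers -0.63, 0.32 and 0.49. The capillary list was at -0.92, 0.42 and 0.17. The MHC class I genes measured in the young pools were at -0.36, -0.09 and -0.23, of which 4 of 7 were lower with the start at 12 months and 6 of 7 with the start at 19 months, whereas the 14 genes of that list measured at the later ages had medians of -0.01 and 0.05. B2m was at -2.70, -0.98 and -0.23. Over all measured genes the medians were 0.08, 0.12 and 0.10, so most of them also lay above 0 at each age. The share of all measured genes above 0 at both later ages is not given here, so the 77 of 80 cannot be set against it. The pairs share no array. By scan date, the young and middle-aged arrays were on 1 slide and the old arrays on another, so old age and slide cannot be told apart. With 1 pool each, the difference between ages was not tested.

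**Figure D4:**
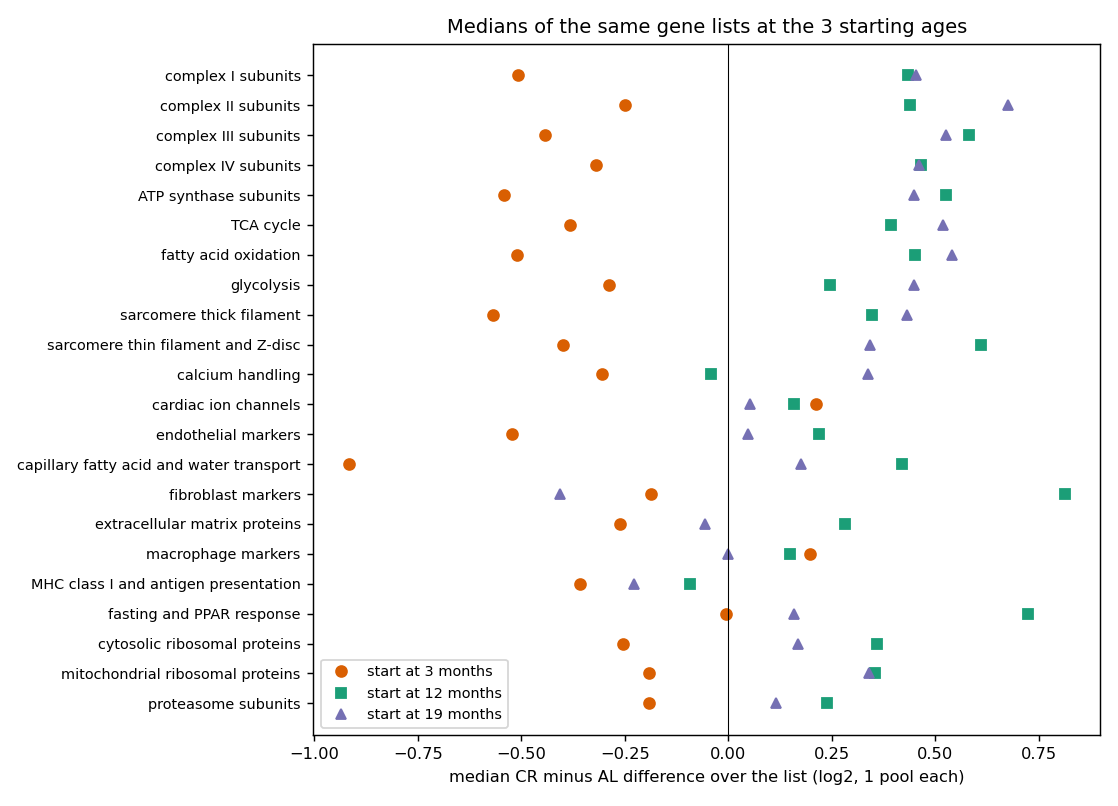
Median CR minus AL difference (log2) of 22 gene lists over the genes measured in the young pools, for CR begun at 3, 12 and 19 months (1 pool per group, no error available). The energy and sarcomere lists lie below 0 for the start at 3 months and above 0 for both later starts, and MHC class I, over the 7 genes measured in the young pools, lies below 0 at all 3.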

How the data were processed

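Ventricular RNA pools of male C57BL/6J mice were hybridised to 6 Agilent single-dye arrays, 1 for each group. Per the file headers and labels, the intensity deposited for each spot is the processed signal of Agilent Feature Extraction 11.0.1.1, which is background-subtracted, with the median signal, the median local background, a signal error and flags. A table of log2 values was also deposited by the authors. How it was normalized is not given in these sources, and its values were used as an alternative. The genome build of the array design is mm9, and no coordinates from it are printed.

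From the scanner tables, control spots and outlier-flagged spots were dropped, replicate spots were averaged, and the log2 processed signal was scaled to each array's 75th percentile. A probe counted when at least 50% of its spots were well above background on both young arrays. RefSeq accessions (without version) named 27234 of 28684 probes through a GRCm38.p6 table, used for names and promoter windows only. Probes of 1 gene were averaged, and 70 of 1079 genes with several probes had probes that differed by at least 2-fold. Samples were grouped by their titles. There is 1 array per group, so calls are folds of at least 2 with no test, and precision is limited by their number. Named genes were the 12 largest rises and falls that stayed past 2-fold under the 75th percentile, median, quantile, loess and normexp settings, the 10 largest rises and falls in the brightest 25%, and members of 61 gene lists (in long lists the extremes and the brightest). The members, lists and motifs were chosen with earlier results of these data known. Python 3.11.15, pandas 2.3.3, statsmodels 0.14.6 and limma 3.58.1 were used, and the fold calculation was tested on simulated data. Alternatives were 11 planned and 2 added after seeing the data, and the spike-in scaling could not be run. The promoter sequences are RefSeq's.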

Additional observations from a re-analysis of the deposited data

Results flagged for a closer look

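Lists of at least 5 genes were picked out when their young median lay beyond the scanner error of a typical member and the same genes had the opposite sign at both later ages. The differences between ages were not tested, and each rests on 1 pool per group. Medians are CR minus AL on the log2 scale, for CR begun at 3, 12 and 19 months in that order. Signs were taken against 0, whereas all genes measured in the young pools had medians of 0.08, 0.12 and 0.10. The old medians of endothelial markers and heat shock lay below that of all genes, so relative to all genes they were not higher there. In energy metabolism they were -0.51, 0.43 and 0.45 for complex I, -0.44, 0.58 and 0.53 for complex III, -0.32, 0.47 and 0.46 for complex IV, and -0.54, 0.53 and 0.45 for ATP synthase. The TCA cycle was at -0.38, 0.39 and 0.52, fatty acid oxidation at -0.51, 0.45 and 0.54, glycolysis at -0.29, 0.25 and 0.45, and phosphagen and adenine nucleotide transfer at -0.21, 0.46 and 0.28.

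In the contractile and vascular lists, the thick filament was at -0.57, 0.35 and 0.43, the thin filament and Z-disc at -0.40, 0.61 and 0.34, cardiomyocyte markers at -0.63, 0.32 and 0.49, endothelial markers at -0.52, 0.22 and 0.05, and the capillary transport list at -0.92, 0.42 and 0.17. The young endothelial median was -0.16 with normexp, within the error of a typical member. Autophagy was at -0.30, 0.42 and 0.22, antioxidant defence at -0.30, 0.36 and 0.39, heat shock at -0.36, 0.37 and 0.05, and cytosolic ribosomal proteins at -0.26, 0.36 and 0.17. The young autophagy median was -0.025 in the brighter 50% of probes, and that of phosphagen and adenine nucleotide transfer was -0.11 there. The young antioxidant median was -0.16 with normexp. Each of these lay within the error of a typical member of its list. So did further young medians after subtraction of the later-age relation. Against 0, complex IV was then at -0.20, glycolysis at -0.183 and heat shock at -0.203 (errors of 0.204, 0.205 and 0.208). Cytosolic ribosomal proteins were at -0.139 (0.17), and phosphagen and adenine nucleotide transfer at -0.07 (0.206). The other flagged lists stayed beyond this error under that setting. The flagged lists share genes with a strong signal in the heart. The young arrays were dimmer than all others, with 75th percentile signals of 29.3 and 23.1 against 199 to 381. The part of that difference in these signs was not tested.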

How the results depend on the processing

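The 302 genes past 2-fold became 107 with normexp, 172 in the brighter 50% of probes, 503 with flagged spots kept and 3241 with no filter on dim probes. The 175 rises became 74 with median scaling, 113 with quantile normalization, 106 with loess on signal, 56 with normexp, 339 with flagged spots and 2492 unfiltered. The 127 falls became 371 with median scaling, 51 with normexp, 191 in the deposited values, 55 in the brighter 50% and 749 unfiltered. The share of rises among changes was 57.9%, against 16.6% with median scaling, 43.1% with quantile normalization, 40.2% with loess, 39.4% in the deposited values and 43.7% after centring, and it was 76.9% unfiltered, 68.0% in the brighter 50%, 67.4% with flagged spots and 65.8% with the percentile over probes above background on all 6 arrays. Median scaling moved the median of all genes from 0.08 to -0.21, so directions are relative to the scale. Relative to all genes, the 39 lists of at least 5 genes had 30 medians below, and 29 to 33 under the alternatives. Over the 11 planned settings, complex I lay between -0.71 and -0.54 relative to all genes, fatty acid oxidation between -0.74 and -0.52, the sarcomere thick filament between -0.71 and -0.55, and the capillary list between -1.17 and -0.47. Erythroid markers turned to -0.10 in the brighter 50%. A percentile over probes above background on all 6 arrays gave 202 rises and 105 falls, and subtraction of the later-age relation 139 and 118 (both added after seeing the data). Spike-in scaling was not run, since 1 of 10 spike-in probes was above background on both arrays and 3 were required. No paired analysis was possible because each group has 1 array and the labels carry no replicate numbers, and for the same reason no replicate could be left out.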
